A study of Mus musculus with 16 samples.

Results

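The collagen chain genes of the mouse bladder were followed here across age and sex. They were taken as every gene whose symbol is Col, a number, a and a number, and whose array probe was well above background, by the scanner software's own flag, on at least 4 of 16 arrays. The reference holds 44 such symbols. For 42 of them 61 probes were matched by accession, and 35 genes with 48 probes passed the filter, out of 26781 genes with 36972 kept probes. Of these 26781, 15933 had a gene symbol. The rest were names on the array without a match in the reference, and each was counted as a gene in the shares of all genes. Of the 35 genes, 27 were well above background on all 16 arrays. The 7 genes that did not pass were Col10a1, Col13a1, Col4a3, Col6a4, Col6a6, Col9a1 and Col9a3, and no probe was matched to Col12a1 or Col6a3.

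RNA of the dissected bladder body of C57BL/6 mice was hybridized, 1 bladder to an array. The groups were mature (MAT) males and MAT females of 12 months and AGED males and AGED females of 27 to 30 months, with 4 arrays in each. The labels name no transgene, deletion or treatment, and age and sex are what they vary. All 4 MAT and 4 AGED arrays of the females lay on 1 slide and those of the males on the other, so sex cannot be told apart from the slide. On both slides the MAT arrays filled the first row and the AGED arrays the second, so age cannot be told apart from the row of the slide.

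Collagens are the main structural proteins of connective tissue. Each chain winds with others into a helix, and the mixture of chains sets the type: fibrillar types I, II, III, V, XI, XXIV and XXVII form or join the fibrils that carry tension, and type IV forms the network of basement membranes. Other types sit on the surface of fibrils, build beaded filaments (type VI) or short-chain networks (type VIII), or span the membrane of epithelial cells (type XVII). In the bladder, types I and III make up much of the wall between and around the muscle bundles, and their amount is often discussed in relation to stiffness. Transcript levels were measured here, not protein. Collagen protein turns over slowly, so the 2 need not follow each other.

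Levels are given as the scaled log2 signal, the log2 of the processed spot signal minus the 75th percentile of its array. A level of 0 is that percentile, and a difference of 1 is 2-fold. Levels of different genes come from different probes and are not set against each other. A gene was called when the limma fit over all genes gave an adjusted p under 0.05 and a change of at least 2-fold. Directions follow the labels deposited with the arrays (AGED minus MAT), while the study's own table of leading genes gives the opposite direction for its leading genes. The bladder markers for smooth muscle (7 of 7 genes) and urothelium (7 of 7) were well above background on all 16 arrays. AGED male replicate 1 was the dimmest array, with 52.3% of probes well above background against 58.6 to 68.2% on the others.

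Of the collagen genes, the type IV pair Col4a1 and Col4a2, the most common basement membrane chains, is shown first. The pair is transcribed from opposite strands of 1 shared promoter. Neither chain had a called change with age, and the part of the promoter in their levels was not tested. In the RefSeq promoter windows used here (GRCm38.p6) the start sites of the pair lie 21 bases apart, at 11312826 for Col4a1 and 11312805 for Col4a2. The RefSeq gene span of Col4a1 ends further out, at 11312889. The windows of the pair, 300 bases around each start, overlap by 78 bases. Col1a2, 1 of the type I chains, is added as a fibrillar example. The box CCAAT, read on both strands (ATTGG on the other), is in capitals.
Col4a1, chr8:11312777-11313076, minus strand: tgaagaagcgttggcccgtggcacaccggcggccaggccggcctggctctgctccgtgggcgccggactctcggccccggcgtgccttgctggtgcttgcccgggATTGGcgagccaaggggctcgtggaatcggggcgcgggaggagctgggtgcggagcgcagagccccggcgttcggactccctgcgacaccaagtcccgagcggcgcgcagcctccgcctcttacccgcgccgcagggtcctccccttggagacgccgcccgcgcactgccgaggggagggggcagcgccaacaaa
Col4a2, chr8:11312555-11312854, plus strand: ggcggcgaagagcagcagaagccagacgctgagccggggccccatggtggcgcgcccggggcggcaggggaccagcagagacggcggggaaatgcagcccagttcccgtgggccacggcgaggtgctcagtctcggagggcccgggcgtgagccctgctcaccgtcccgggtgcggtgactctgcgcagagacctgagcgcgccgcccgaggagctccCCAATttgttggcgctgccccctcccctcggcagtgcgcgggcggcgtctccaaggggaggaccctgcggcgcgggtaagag
Col1a2, chr6:4505368-4505667, plus strand: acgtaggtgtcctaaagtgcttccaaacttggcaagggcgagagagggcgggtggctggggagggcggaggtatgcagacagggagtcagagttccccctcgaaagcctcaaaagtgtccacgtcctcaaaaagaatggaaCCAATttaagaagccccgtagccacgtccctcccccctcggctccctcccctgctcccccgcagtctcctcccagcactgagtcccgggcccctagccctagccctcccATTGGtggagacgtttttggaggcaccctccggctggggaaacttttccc

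Promoter windows were found for 29 of the collagen genes (31 windows). CCAAT stood in 11 of the 31 windows (35.5%), and in 37.4% of all 32851 promoter windows of the table. GGGCGG, the core of a GC box, with CCGCCC on the other strand, stood in 21 of 31 (67.7%) against 35.7% of all. TATAAA, the TATA box, with TTTATA on the other strand, stood in 3 of 31 (9.68%) against 13.6%. These are matches of letters in a window and not bound sites.

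In AGED males most collagen genes had a fitted change below 0, and 1 gene passed the call. Of 35 genes, 30 had a fitted change below 0, where 49.8% of all genes did. The median change was −0.35, where the median of all genes was 0.00145. All 11 fibrillar genes (median −0.36, from −0.72 to −0.11) and all 5 type IV genes (median −0.39, from −0.80 to −0.14) were below 0, and so were 14 of the 19 others (median −0.33). By the call, 1 of 35 was lower (0.575% of all genes were) and 0 of 35 were higher (0.276% of all genes). At an unadjusted p under 0.05, 11 of 35 were lower (8.36% of all genes) and 0 higher (7.86% of all genes). The AGED arrays lay below every MAT array, without overlap, for 4 of 35 (3.91% of all genes did so). These were Col14a1, Col15a1, Col4a4 and Col6a5, of which Col6a5 passed the filter on dim probes only through its MAT male arrays. Col6a5 is also among the 11 genes lower at the unadjusted p. By array, the median difference of the 35 genes from the MAT mean ran from −0.78 to −0.02 over the AGED male arrays. Over the MAT male arrays it ran from −0.08 to 0.07, and AGED male replicate 2, at −0.02, lay within that range. The group shift, read as the median change, was smaller under other choices. Without AGED male replicate 1 the median was −0.23, with 29 genes below 0. On signals taken before the scanner software's spatial detrending it was −0.16 over 33 genes, where the median of all genes was 0.07.

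**Figure D1:**
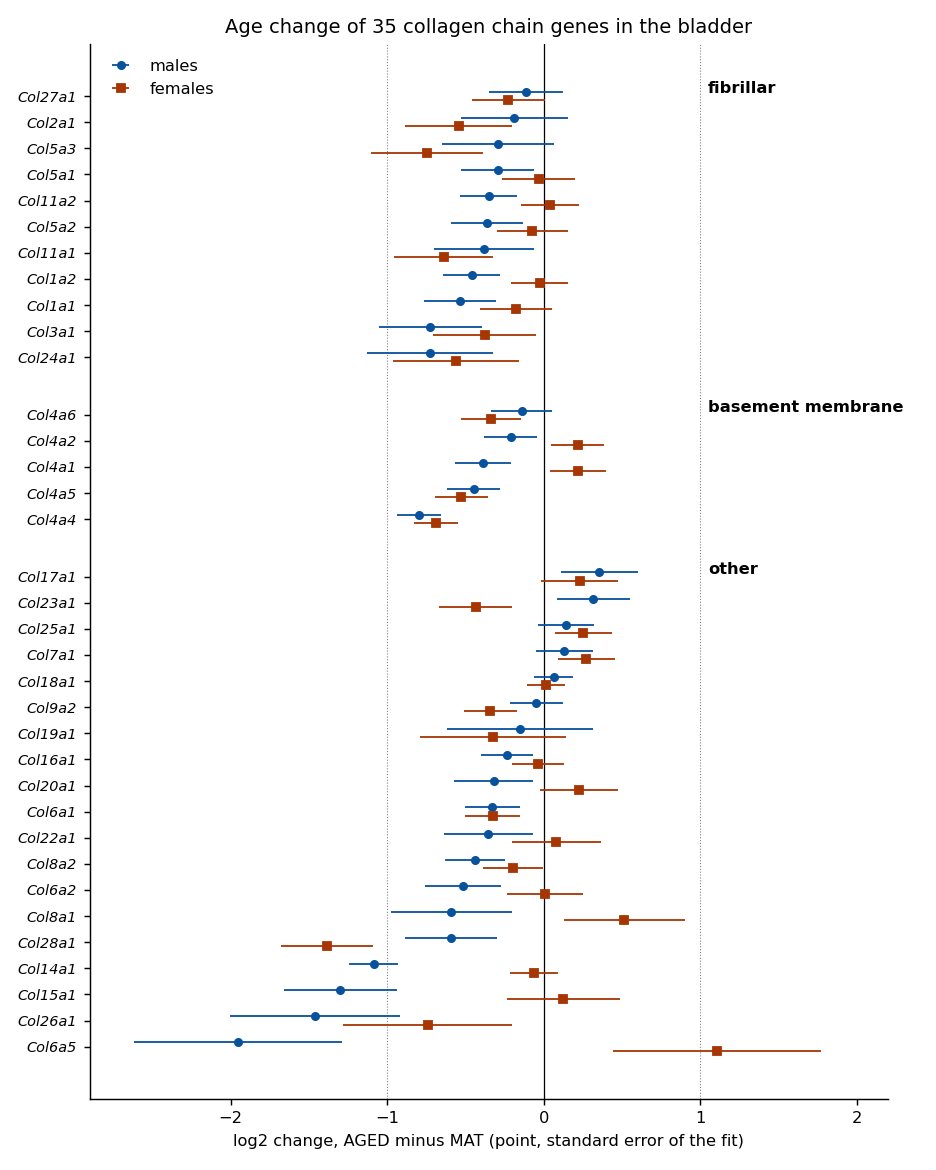
Fitted log2 change, AGED minus MAT, of each of the 35 collagen chain genes in males (blue circles) and females (brown squares), by class, with the standard error of the limma fit as the bar and dotted lines at 2-fold. In males 30 of 35 points lie left of 0 and in females 22 of 35.

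In bulk tissue, fewer cells of a type and less RNA per cell cannot be told apart. The summed level of 6 fibroblast markers (the sum of their linear scaled signals) ran from 259 to 445 on MAT male arrays and from 202 to 317 on AGED male arrays. Such a sum follows its brightest probes most, and dim markers weigh little in it. The median change of the 6 fibroblast markers in males was −0.08, with 0 of 6 called (0.575% of all genes were called lower and 0.276% higher). The summed level of 7 smooth muscle markers ran from 1270 to 1350 and from 1266 to 1534. All 6 and all 7 were well above background on all arrays. Their part in the collagen changes was not tested.

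The fibril-forming types I and III had no called change in males. Col1a1, which encodes the alpha 1 chain of type I, stood at 6.14, 5.89, 6.29 and 6.19 on the MAT male arrays and at 4.86, 6.11, 5.53 and 5.89 on the AGED male arrays. The AGED arrays spread widely and overlapped the MAT arrays: 1 AGED array was as high as the MAT arrays and replicate 1 was far below. Col1a1 thus changed by −0.54 (standard error 0.23, limma adjusted p = 0.264), or by −0.29 without AGED male replicate 1. Col1a2, its partner chain, stood at 7.25, 7.32, 7.45 and 7.30 on MAT and at 6.78, 7.26, 6.51 and 6.92 on AGED male arrays. The highest AGED array only just reached the lowest MAT array. The change was −0.46 (standard error 0.18, adjusted p = 0.227). Before detrending it was −0.17, and the groups overlapped. Col3a1, the chain of type III, stood at 6.17, 6.51, 6.40 and 7.01 on MAT and at 4.94, 6.31, 5.28 and 6.68 on AGED male arrays. Both low AGED values belong to replicates 1 and 3, and the others lay within the MAT range. The change was −0.72 (standard error 0.33, adjusted p = 0.296), and −0.44 without AGED male replicate 1. Before detrending the Col3a1 change was −0.40, and the groups overlapped. Over the 3 genes of types I and III, the median difference from the MAT mean ran from −1.27 to −0.07 over the AGED male arrays and from −0.08 to 0.12 over the MAT male arrays.

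The minor fibrillar chains, which join or start the main fibrils, were also below 0 in males, with 0 called. Type V chains changed by −0.29 (Col5a1), −0.36 (Col5a2) and −0.29 (Col5a3), with adjusted p of 0.552, 0.451 and 0.714. Type XI chains changed by −0.38 (Col11a1) and −0.35 (Col11a2). Col24a1 changed by −0.72 (adjusted p = 0.389) and Col27a1 by −0.11. Col2a1, the chain of cartilage fibrils, was well above background on 5 of 16 arrays and changed by −0.19.

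**Figure D2:**
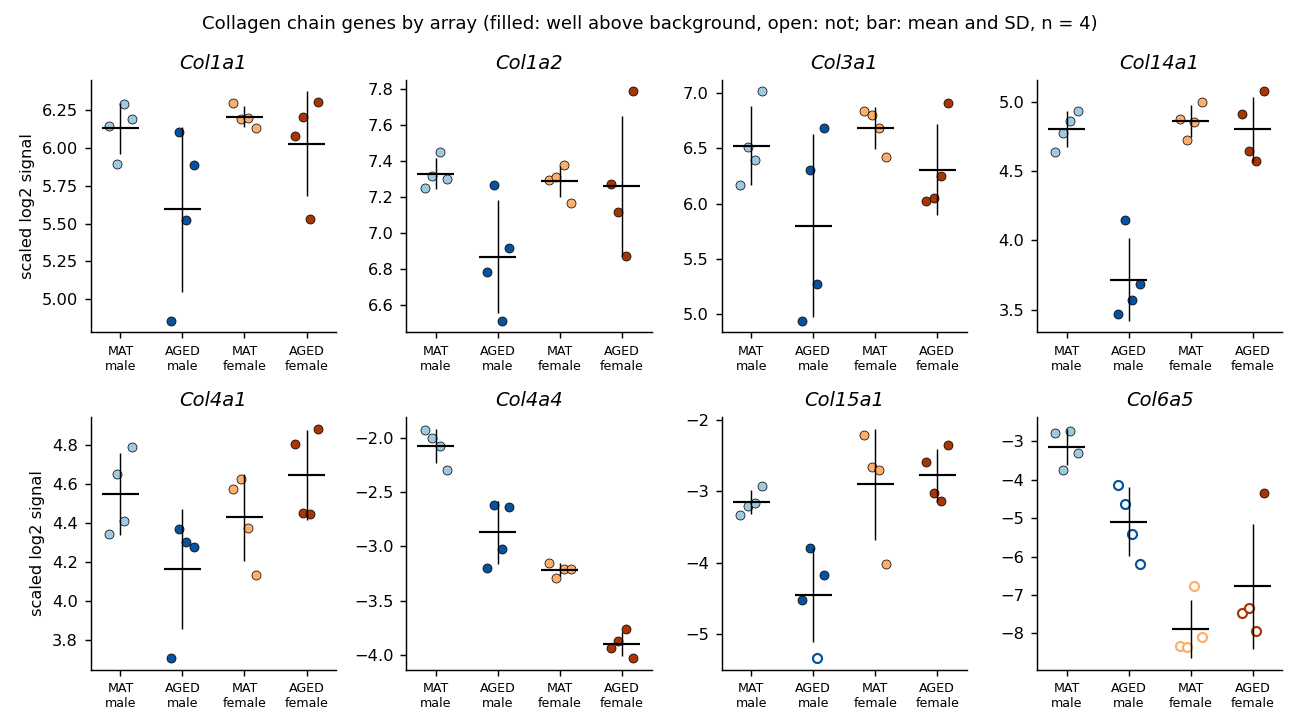
Scaled log2 signal of 8 collagen chain genes on each of the 16 arrays, with the mean and SD of each group (n = 4). Filled points are well above background and open points are not. The AGED male arrays of Col14a1, Col4a4, Col15a1 and Col6a5 lie below all MAT male arrays, while those of Col1a1, Col1a2, Col3a1 and Col4a1 overlap them.

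Col14a1, the chain of type XIV, which binds the surface of fibrils and is thought to govern how they merge, was the 1 gene called lower in AGED males. It stood at 4.64, 4.77, 4.86 and 4.94 on MAT and at 3.47, 4.14, 3.57 and 3.69 on AGED male arrays. The groups did not overlap (two-sided exact permutation p = 0.0286, the smallest that 4 against 4 arrays can give). The change was −1.09 (standard error 0.16, adjusted p = 0.00327). In females it was −0.06 (standard error 0.16, adjusted p = 0.940), with levels of 4.88, 4.72, 4.85 and 5.001 on MAT and 4.91, 4.64, 4.57 and 5.08 on AGED arrays.

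The size of the Col14a1 change depended on a step of the scanner software. That step, spatial detrending, corrects for a gradient of signal across the array. The probe tested lies in the first of 384 spot rows, at the edge, and its signal after detrending was 0.579 to 1.73 times that before it, depending on the array. The largest ratio was on MAT male replicate 4. Before detrending the male change was −0.52 (adjusted p = 0.102), with MAT arrays from 4.17 to 4.93 and AGED arrays from 3.75 to 4.37, which overlap (exact permutation p = 0.0857). A dimmer second probe of Col14a1 lies in row 67, and there the ratio was 0.832 to 1.04. It changed by −0.84 in males (standard error 0.17, adjusted p = 0.0210 in the fit of every kept probe). Before detrending it changed by −0.59, and the groups still did not overlap (MAT 0.50 to 0.85, AGED −0.31 to 0.37, exact permutation p = 0.0286). Both probes had a lower mean in AGED males under either signal, and the 2-fold call rests on the detrended signal of the brighter probe. The Col3a1 probe, in row 70, had a ratio of 0.698 to 1.75. The part of the spot position in these ratios was not tested.

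**Figure D3:**
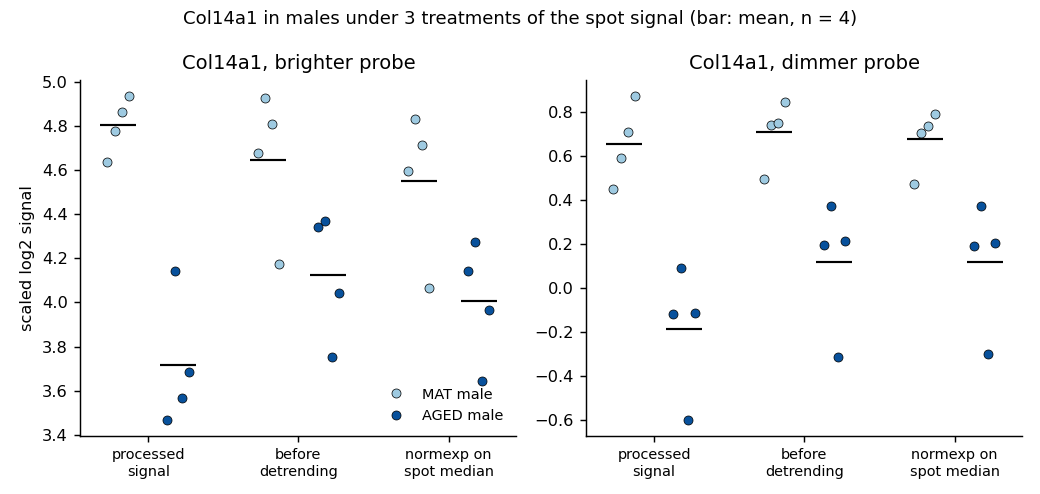
Scaled log2 signal of the brighter and the dimmer Col14a1 probe in males, for the processed signal, the signal before spatial detrending, and normexp background correction of the spot median; points are arrays and bars are means (n = 4). The AGED arrays of the dimmer probe lie below the MAT arrays under all 3, while the brighter probe overlaps in the last 2.

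The type IV chains are given next. Col4a4, which joins the alpha 3 and alpha 5 chains in the membranes of kidney glomeruli and of some epithelia, lay lower on all AGED than on all MAT arrays in both sexes. On MAT male arrays it stood at −1.93, −1.998, −2.07 and −2.295, and on AGED male arrays at −3.20, −2.61, −3.03 and −2.63. On MAT female arrays it stood at −3.15, −3.29, −3.21 and −3.21, and on AGED female arrays at −3.94, −3.87, −3.77 and −4.03. The age groups were apart in each sex. The male change was −0.80 (standard error 0.14, adjusted p = 0.0106), which passed the p but not the 2-fold limit. The female change of −0.69 (standard error 0.14, adjusted p = 0.0655) did not pass. The 2 changes differed by −0.11 (male minus female, adjusted p = 0.909). Before detrending they were −0.68 and −0.62, and the groups stayed apart in both sexes. A second, dimmer probe of Col4a4 changed by 0.00166 in males and by −1.05 in females, with overlap in both.

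Col4a1 and Col4a2 had no called change. Col4a1 stood at 4.34, 4.65, 4.41 and 4.79 on MAT and at 3.70, 4.37, 4.30 and 4.28 on AGED male arrays, a change of −0.39 (standard error 0.18, adjusted p = 0.295). AGED male replicate 1 was the low array, and without it the change was −0.23. Col4a2 stood at 3.54, 4.07, 3.68 and 3.74 on MAT and at 3.54, 3.76, 3.48 and 3.39 on AGED male arrays, a change of −0.21 (adjusted p = 0.561). Before detrending the male changes were −0.27 for Col4a1 and −0.02 for Col4a2. In females both were slightly above 0. Col4a1 went from 4.58, 4.63, 4.38 and 4.13 on MAT to 4.81, 4.45, 4.45 and 4.89 on AGED female arrays (0.22, adjusted p = 0.730). Col4a2 went from 3.55, 3.77, 3.42 and 3.24 to 3.92, 3.50, 3.40 and 4.03 (0.22, adjusted p = 0.718). The 2 chains thus had the same sign within each sex and opposite signs between the sexes, and in both sexes their AGED and MAT arrays overlapped. The X-linked pair Col4a5 and Col4a6 changed by −0.45 and −0.14 in males and by −0.53 and −0.34 in females. Only the female arrays of Col4a5 were apart, at 2.54 to 2.94 on MAT and 2.07 to 2.36 on AGED (adjusted p = 0.292).

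Among the other types, Col15a1 had a lower level in AGED males that missed the adjusted threshold. Type XV lies at the outer face of basement membranes of muscle and vessels. Its gene stood at −3.32, −3.21, −3.16 and −2.93 on MAT and at −4.52, −3.79, −5.33 and −4.17 on AGED male arrays. The groups were apart, and the array at −5.33 was not well above background. The change was −1.30 (standard error 0.36, adjusted p = 0.0879). With normexp background correction it was −0.33 and the groups overlapped (exact permutation p = 0.143). Its other 2 probes changed by −1.49 (adjusted p = 0.00291 in the fit of every kept probe) and −0.90 (adjusted p = 0.354). The probe at −1.49 was well above background on only 12 arrays, and its AGED male values ran from −5.80 to −4.77. With normexp these 2 probes changed by −0.57 and −0.46 in males, and the groups overlapped for both (exact permutation p = 0.0857 and 0.143). In females the gene changed by 0.13 (adjusted p = 0.952). The summed level of 5 endothelial markers ran from 10.9 to 15.4 on MAT and from 10.5 to 14.2 on AGED male arrays. In males 0 of the 5 were called (0.575% of all genes were called lower and 0.276% higher). The part of these markers was not tested.

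Col6a5, a type VI chain of beaded filaments, was well above background on all 4 MAT male arrays, on 0 AGED male and 0 MAT female arrays, and on 1 AGED female array. On MAT male arrays it stood at −2.80, −3.74, −2.73 and −3.30. The AGED males at −4.15, −4.64, −5.41 and −6.19 were all below them. The measured means, −3.14 and −5.10, give only a bound for the dim group, so on this signal the level was at least 3.59-fold lower in AGED males. With normexp background correction the change was −0.73 and the groups overlapped (exact permutation p = 0.0857). Without its MAT male arrays the gene would not have passed the filter, so a higher level there was built into its selection, and its comparisons with MAT males are descriptions. The bound sets the mean of the bright group against the dimmest signal that counts as well above background on each array, or the probe's own where that is higher. Of the main type VI chains, Col6a1 changed by −0.33 (adjusted p = 0.368) and Col6a2 by −0.52 (adjusted p = 0.310) in males. Col26a1, whose protein carries an EMI domain, changed by −1.46 (standard error 0.54, adjusted p = 0.194) with overlapping arrays, and was well above background on 1 of 4 AGED male arrays.

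The epithelial chains were among the 5 genes above 0 in males. Col17a1, which anchors basal epithelial cells through hemidesmosomes, stood at 0.82, 1.49, 0.44 and 0.73 on MAT and at 0.95, 0.85, 1.77 and 1.33 on AGED male arrays (0.36, adjusted p = 0.494). Col7a1, the chain of anchoring fibrils beneath epithelia, stood at −0.15, 0.01, −0.19 and −0.05 on MAT and at 0.23, 0.08, −0.57 and 0.41 on AGED male arrays (0.13, adjusted p = 0.751). Both overlapped between the ages. Col23a1 and Col25a1, which span the membrane, changed by 0.32 and 0.14, and Col18a1, the source of endostatin, by 0.06. The fibril-associated chains Col16a1, Col20a1, Col22a1, Col19a1 and Col9a2 changed by −0.23, −0.32, −0.35, −0.15 and −0.05. The type VIII chains changed by −0.59 (Col8a1) and −0.44 (Col8a2).

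In AGED females 0 collagen genes were called. Of 35 genes, 22 had a change below 0 (50.9% of all genes), with a median of −0.07 where the median of all genes was −0.01. By the call 0 of 35 were lower (0.0112% of all genes) and 0 higher (0.179% of all genes). At an unadjusted limma p under 0.05, 3 were lower (5.85% of all genes) and 0 higher (4.61% of all genes). The arrays were apart, AGED below MAT, for 7 of 35 (5.78% of all genes), and AGED above MAT for 0 of 35 (5.04% of all genes). The 7 were Col4a4, Col4a5, Col28a1, Col5a3, Col6a1, Col9a2 and Col23a1. The classes had medians of −0.22 (fibrillar, 10 of 11 below 0), −0.34 (type IV, 3 of 5) and 0.01 (others, 9 of 19). Without AGED female replicate 4 the median of all 35 was −0.20, with 26 genes below 0. The median changes of the 2 sexes were not compared by a test.

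**Figure D4:**
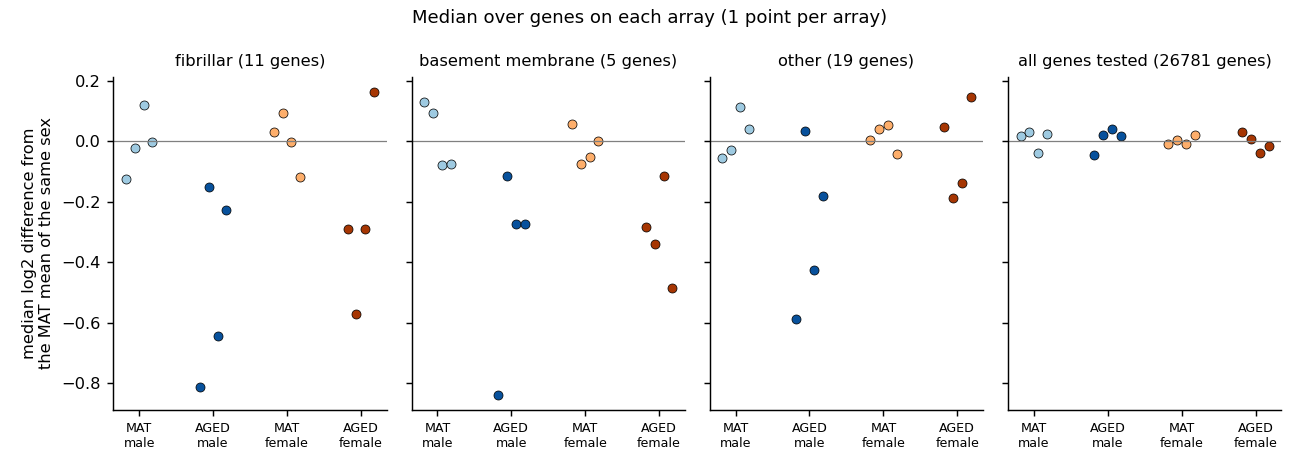
For each array, the median over the genes of a class of the log2 difference from the MAT mean of the same sex (1 point per array, 4 per group). The AGED male arrays run from −0.81 to −0.15 for fibrillar and from −0.84 to −0.12 for type IV genes. For the other 19 genes they run from −0.59 to 0.03, and replicate 2 lies within the MAT male range of −0.05 to 0.11. The median over all 26781 genes stays between −0.05 and 0.04 on every array.

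Col28a1 had the largest female change among the collagen genes. Type XXVIII is found mainly around the glia of peripheral nerve. It stood at −3.66, −3.53, −3.59 and −3.49 on MAT and at −4.64, −5.01, −4.94 and −5.22 on AGED female arrays. The MAT arrays lay close together and far above all AGED arrays, of which replicate 2 was not well above background. The change was −1.38 (standard error 0.29, adjusted p = 0.0753), past 2-fold but not past the adjusted threshold. With normexp it was −0.68, and the groups stayed apart. In males it stood at −3.69, −4.04, −3.56 and −3.69 on MAT and at −4.39, −3.52, −5.46 and −3.99 on AGED arrays. These overlapped, with a change of −0.59 (adjusted p = 0.334). The difference between the sexes was 0.79 (adjusted p = 0.570). Of the Schwann cell markers given here, Sox10 and S100b were lower on all AGED than on all MAT female arrays, with changes of −0.94 and −0.41, and Mbp changed by 0.14. Of all genes, 5.78% were lower without overlap in females. The other markers of that list are not reported here, so those given do not describe the list. None of Sox10, S100b and Mbp was called. The part of these markers in the Col28a1 values was not tested.

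Of the other fibril-related chains in females, Col5a3 was apart between the ages. It stood at 2.25, 1.95, 1.95 and 2.203 on MAT and at 1.09, 1.03, 1.62 and 1.65 on AGED female arrays (−0.74, standard error 0.36, adjusted p = 0.490). In males its arrays overlapped, at 0.94, 0.80, 0.94 and 1.76 on MAT and 0.09, 1.70, −0.05 and 1.54 on AGED. Col6a1 stood at 6.04, 6.09, 6.01 and 5.99 on MAT and at 5.48, 5.54, 5.83 and 5.98 on AGED female arrays, and the highest AGED array all but met the lowest MAT array (−0.33, adjusted p = 0.546). Types I and III had no called change: Col1a1 by −0.18, Col1a2 by −0.03 and Col3a1 by −0.38, with adjusted p of 0.857, 0.981 and 0.757. Col1a1 stood at 6.30, 6.19, 6.20 and 6.13 on MAT and 6.08, 6.21, 5.53 and 6.30 on AGED female arrays. Col1a2 stood at 7.29, 7.31, 7.38 and 7.17 and at 7.27, 7.12, 6.87 and 7.79. Col3a1 stood at 6.84, 6.80, 6.68 and 6.42 and at 6.02, 6.05, 6.25 and 6.91. All 3 overlapped, with AGED female replicate 4 the highest of its group in each. In females the fibroblast markers summed to 298 to 327 on MAT and 208 to 366 on AGED arrays.

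The male and female age changes were compared directly by their difference in the same fit. Of the 35 genes, 0 passed an adjusted p under 0.05 (0.149% of all genes did). At an unadjusted p under 0.05, 5 did (9.87% of all genes): Col14a1, Col15a1, Col23a1, Col4a1 and Col6a5. Col6a5 passed the filter only through its MAT male arrays, so a lower male change was built into its selection. Its place among the 5 is a description. For Col14a1 the male change was lower than the female by 1.02 in log2 units (difference −1.02, adjusted p = 0.0863), and for Col15a1 the difference was −1.42 (adjusted p = 0.337). For Col4a1 it was −0.61 (adjusted p = 0.439) and for Col23a1, which changed by 0.32 in males and −0.43 in females, 0.75 (adjusted p = 0.479).

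Between the sexes, which lay on different slides, Col4a4 differed at both ages. At 12 months, 2 of 35 genes were higher in males (0.101% of all genes) and 0 lower (0.0635% of all genes). They were Col4a4, by 1.14 (standard error 0.14, adjusted p = 0.00146), and Col6a5, which passed the filter only through its MAT male arrays, so that its place in this count follows from the filter. The measured means of Col6a5 were −3.14 in MAT males and −7.89 in MAT females, at least 7.57-fold apart on this signal. At 27 to 30 months, 2 genes were higher in males (1.24% of all genes) and 2 lower (1.88% of all genes). The higher genes were Col4a4, by 1.03 (standard error 0.14, adjusted p = 0.00106), and Col17a1, by 1.11 (standard error 0.25, adjusted p = 0.0135). Col17a1 stood at 0.02, −0.57, 0.18 and −0.10 on MAT and 0.21, 0.38, −0.20 and 0.06 on AGED female arrays, and in MAT mice the male arrays were also above it without overlap (0.99, adjusted p = 0.105). The lower genes were Col14a1, by −1.08 (adjusted p = 0.00149), and Col15a1, by −1.68 (adjusted p = 0.0115). With the signal before detrending Col14a1 was not among the AGED calls, at −0.65, and with normexp background correction Col17a1 was the 1 gene called. Neither MAT call was made with normexp. Before detrending Col4a4 was not called, and Col6a5 could not be tested, since it had no positive signal there on some female arrays.

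Other genes of collagen synthesis and use were described from 5 lists. Of 20 genes for prolyl and lysyl modification and chaperones, which finish the chains in the endoplasmic reticulum, 1 was called lower in AGED males (0.575% of all genes were) and 0 in AGED females (0.0112% of all genes). In males 15 of the 20 were below 0 (49.8% of all genes), and in females 9 (50.9% of all genes). The called gene was P3h4, a partner of the lysyl hydroxylase complex, with means of 3.56 ± 0.26 (SD, n = 4) on MAT and 2.18 ± 0.78 on AGED male arrays (−1.38, adjusted p = 0.0217). It changed by 0.05 in females. Of 8 tested genes for procollagen processing, 0 were called in either sex. Of all genes, 0.575% were called lower and 0.276% higher in males, and 0.0112% and 0.179% in females. Pcolce2, an enhancer of C-propeptide removal, changed by −0.87 in males (adjusted p = 0.162). Its female change was −0.26. Of 5 lysyl oxidases, which cross-link the chains, and 8 tested receptors, 0 were called in either sex, beside the same shares of all genes. In males 2 of the 5 oxidases and 1 of the 8 receptors were lower without overlap (3.91% of all genes), and 0 were higher. The 2 oxidases were Loxl3 (−0.79, adjusted p = 0.0897) and Loxl4 (−0.46, adjusted p = 0.240). In females 0 were lower, and 0 oxidases and 1 receptor were higher without overlap (5.04% of all genes). Among the receptors, Itga11, a collagen-binding integrin, changed by −0.83 in males and −0.58 in females. Lair1, an inhibitory receptor of immune cells, changed by 0.54 in males and 0.69 in females.

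Of 5 tested collagen-degrading enzymes, 1 was called higher in both sexes (0.276% of all genes in males and 0.179% in females). This was Mmp3, stromelysin-1, which cuts many matrix proteins and activates collagenases. Its mean was −2.61 ± 0.40 (SD, n = 4) on MAT and −0.14 ± 0.82 on AGED male arrays (2.47, adjusted p = 0.00115), and −0.72 ± 0.13 on MAT and 1.18 ± 0.12 on AGED female arrays (1.90, adjusted p = 0.0269). The study's own table of leading genes lists Mmp3 as downregulated in aged mice of both sexes, which is the opposite direction. The direction given here follows the labels deposited with the arrays. Mmp2 and Mmp14, a gelatinase and its membrane activator, changed by −0.26 and 0.32 in males and by 0.00 and 0.05 in females.

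Markers of other cells that the bladder body could hold were read on the same arrays, and 0 genes of any list were called between the ages in either sex. Of all genes, 0.575% were called lower and 0.276% higher in males, and 0.0112% and 0.179% in females. All 4 T cell markers were above 0 in males (median change 0.63), with a summed level from 1.81 to 2.998 on MAT and 1.95 to 11.1 on AGED arrays. In females 0 of the 4 were above 0 (median −0.13), with a summed level from 3.799 to 5.44 on MAT and 2.33 to 6.47 on AGED arrays. The 6 macrophage markers tested had medians of 0.37 in males and 0.42 in females, and summed levels from 83.2 to 103.5 on MAT and from 93.8 to 184.6 on AGED male arrays, and from 80.8 to 91.7 and from 72.1 to 128.8 in females. Proliferation markers in females (4 of 4 above 0, median 1.12) summed to 1.71 to 3.09 on MAT and 2.11 to 9.29 on AGED arrays. In males 2 of the 4 were above 0 (median −0.21), with sums from 1.497 to 2.41 and from 1.58 to 4.95. Adipocyte, mesothelial and skeletal muscle markers had male medians of −0.59, −0.62 and −0.85 and female medians of −1.12, 0.34 and −0.19. The cartilage markers Acan, Comp and Sox9 changed by −0.24, −0.66 and 1.30 in males and by −0.12, −0.35 and 0.21 in females, and Matn1 and Matn3 did not pass the filter. Their part in the collagen values was not tested.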

How the data were processed

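Expression was measured in 16 bladders on 1-colour Agilent arrays of 62976 spots. The authors deposited intensities as Feature Extraction wrote them (9.1 in the submitters' processing notes, 10.7.3.1 in the file headers): a processed signal, background-subtracted and detrended, and median spot and background signals. They also deposited a log2 table with each probe centred on its median, which matched the scanner values within 0.003 (median absolute difference).

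The log2 processed signal was scaled by each array's 75th percentile. Control spots were dropped, as were 399 probe values with an outlier flag, and 0 spots were saturated. Probes were named by accession through RefSeq, a gene being its kept probe with the highest mean. Unmatched probes kept the array's own name as their gene. 6572 genes had over 1 kept probe. limma 3.58.1 (R 4.3.3) fitted the means of the 4 groups together, leaving 12 residual degrees of freedom, with Benjamini-Hochberg adjustment over all 26781 genes. p-values measure the spread between these mice, and 4 arrays per group limit the precision. The procedure was tested on simulated data.

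The members and lists were chosen with earlier results of these data known. Values array by array are given for 10 listed genes, members called in a comparison, and members changed at least 1.5-fold without overlap. From the other lists, called genes and the 3 largest changes were named, with others where a result turned on them. Alternatives covered scaling, filters, probes per gene, background correction (normexp, offset 50), the methods' t-test, blocks and single arrays. The signal before detrending was added after the data were seen. The values of some listed marker genes are not reported here.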

Additional observations from a re-analysis of the deposited data

Results flagged for a closer look

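Among 140 groups of 4 arrays (35 genes, 4 groups), 9 (6.43%) held an array far from the other 3, by the gap to its nearest neighbour as a share of the range. Chance marks about 1 group in 20. Of 12 class medians by group, 0 were marked. AGED male replicate 1 was low for Col4a1 (3.70 against 4.28 to 4.37, share 0.861) and high for Col25a1 (2.59 against 2.03 to 2.08, share 0.916). AGED male replicate 2 was low for Col11a2 (−4.65 against −4.28 to −4.22, share 0.848). MAT male replicate 4 was high for Col5a3 (1.76 against 0.80 to 0.94, share 0.851). MAT female replicate 4 was low for Col20a1 (−1.92 against −0.85 to −0.81, share 0.969), and replicate 2 was high for Col24a1 (−2.05 against −2.897 to −2.77, share 0.853). AGED female replicate 1 was high for Col8a2 (1.204 against 0.60 to 0.68, share 0.868). For Col6a5, MAT female replicate 3 (−6.76 against −8.36 to −8.10, share 0.838) and AGED female replicate 4 (−4.36 against −7.95 to −7.34, share 0.831) were high, and of these 8 female arrays 1 was well above background.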

How the results depend on the processing

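The count of collagen genes called in AGED males, 1 here, was 0 with each sex fitted alone, with the mean of a gene's probes, with normexp, with the methods' t-test after adjustment and before detrending. It was 2 with every probe tested (Col14a1, Col15a1), with a floor on low signals (Col14a1, Col6a5) or with no fold limit (Col14a1, Col4a4), 3 with the methods' t-test unadjusted and 4 with limma unadjusted. Leaving out single arrays gave 1 to 3, with 3 without AGED male replicate 2 and 2 without AGED female replicate 4 or MAT female replicate 4. In females, 0 here, it was 1 (Col28a1) with the sex fitted alone and under either unadjusted test, and 0 to 1 over single arrays, with 1 without AGED male replicate 2 or 3. For the difference between the sexes, 0 here, it was 1 (Col6a5) with the floor, 5 unadjusted, and 0 to 1 over single arrays (Col14a1 without AGED male replicate 2). For MAT males against MAT females, 2 here, it was 1 with the mean of probes or only probes above background on all arrays. It was 0 with normexp, and 0 before detrending, where Col6a5 could not be tested. For AGED males against AGED females, 4 here, it was 2 with the age fitted alone, 1 with normexp and 0 with the adjusted t-test. The share of all genes called under each of these settings is not given. These counts therefore describe the settings and are not read as results about the collagen genes. Col6a5 passed the filter only through its MAT male arrays, so its calls here are descriptions. The median change in males ran from −0.48 to −0.23 over left-out arrays and in females from −0.20 to −0.0098, where −0.20 is without AGED female replicate 4.

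Small female changes turned sign. Col14a1 was 0.10 with normexp, 0.089 before detrending and ran from −0.15 to 0.013 over left-out arrays, above 0 without AGED female replicate 3. Col15a1 was −0.036 with the mean of probes and ran from −0.25 to 0.35, below 0 without MAT or AGED female replicate 4. Col1a2 ran from −0.20 to 0.10, above 0 without AGED female replicate 2, AGED female replicate 3 or MAT female replicate 3. The causes were not tested.

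Same-numbered arrays of a sex did not deviate together (correlations −0.147 to 0.068, best with their own number in 2 of 8), and the numbers were not used as pairs. Arrays with the same number also lay in the same column of their slide. Such correlations over all genes cannot show that the numbers carry no pairing. With the replicate number as a block, 1 gene was called in males, 0 in females, 0 for the difference, 2 and 5 between the sexes, and the medians stayed at −0.35 and −0.07. Dim probes limit Col2a1, Col6a5 and Col19a1, which were well above background on 5, 5 and 9 arrays.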
